A study of Mus musculus with 4 samples.

Results

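The cells described here were barcodes that held at least 1 unique molecular identifier (UMI, 1 captured transcript) of *Dkk2* and at least 1 of *Mab21l2*. They were selected on the counts of these 2 genes and of the genes below, and they numbered 236 of the 30415 barcodes kept from 4 single-cell libraries of mouse hearts at E10.5 (embryonic day). A barcode was kept when it held at least 1500 genes and at most 10% mitochondrial UMIs. The gate further asked for *Tnnt2* under 15, *Hbb-y* under 500 and the sum of *Pecam1*, *Cdh5* and *Ecscr* under 2 UMIs per 10000, which removed cardiomyocytes (CMs), red blood cells and endothelial cells, and for no UMI of *Epcam* or *Barx1*. These cells had been given the working name mesothelial-like mesenchyme, with *Dkk2*, *Mab21l2*, *Ndnf*, *Wnt2* and *Tnc* as its genes. The name comes from the leading genes of an earlier grouping of the same cells, so the genes that accompany *Dkk2* and *Mab21l2* describe the cells that were picked and are not separate evidence for them.

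The study asked what loss of TIE2, the angiopoietin receptor encoded by *Tek*, does to the developing heart. The cardiogenic region was dissected whole and run on the 10x Genomics platform, with 2 libraries per genotype. Libraries 5 and 7 were control embryos carrying the loxP-flanked *Tek* allele on both chromosomes (Tie2 fl/fl), and libraries 6 and 8 were Tie2-cko littermates that also carried Nfatc1-Cre (Nfatc1-Cre;Tie2 fl/fl), a Cre expressed from the *Nfatc1* locus in endocardial cells (EdCs). Embryos of both genotypes thus carried the floxed allele, and both came from stock of mixed strain background. By the methods, 2 hearts of each genotype were used, matched for somites within a litter, and which heart gave which library is not given in the sources used here. The files held 18488, 8877, 11172 and 11899 barcodes in libraries 5, 6, 7 and 8, with 259775540, 222270938, 169361996 and 210062861 UMIs.

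Mesothelium is the flat epithelium that lines the body cavities and covers the organs within them, and the epicardium is the mesothelium of the heart. Mesothelial cells carry keratins beside genes of connective tissue, and in embryos they can leave the surface and become mesenchyme. *Dkk2* encodes a secreted protein that binds the Wnt co-receptors and can dampen or raise Wnt signalling, and *Mab21l2* encodes a nuclear protein that is required for the eye and for closure of the ventral body wall in mice. *Ndnf* and *Wnt2* encode secreted factors and *Tnc* encodes tenascin C, a matrix glycoprotein of embryonic connective tissue.

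The libraries differed strongly in how many of these cells they held. Library 5 held 97 (1.08% of kept barcodes, exact 95% interval 0.873 to 1.31) and library 6 held 111 (2.48%, 2.05 to 2.98). Library 7 held 18 (0.226%, 0.134 to 0.357) and library 8 held 10 (0.112%, 0.0535 to 0.205). Libraries 5 and 6, 1 of each genotype, thus held 208 of the 236 cells (88.1%), and the lower of their shares was 4.76 times the higher share of libraries 7 and 8. With red blood cells and CMs left out of the denominator the shares were 2.23, 4.31, 0.504 and 0.249%, in the same order. The intervals cover counting error and not the spread between dissections.

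The shares of some other cells were also higher in libraries 5 and 6 than in 7 and 8. *Epcam*-positive barcodes made up 11.7, 17.1, 4.67 and 7.31% of the kept barcodes of libraries 5, 6, 7 and 8, and mesenchymal cells with *Barx1* and *Foxf1*, genes of the foregut wall, made up 2.88, 6.36, 0.301 and 0.748%. Between libraries 7 and 8 both shares were higher in library 8, where the share of Dkk2 Mab21l2 cells was lower. The median depth of the Dkk2 Mab21l2 cells was 19790, 30160, 12928 and 15448 UMIs, against 22023, 36302.5, 16625 and 18758 over all kept barcodes. The part of dissection and of depth in the difference between libraries was not tested.

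The cells from libraries 7 and 8 also matched their working name less well. At least 2 of *Ndnf*, *Wnt2* and *Tnc* were detected in 79 of the 97 cells of library 5 (81.4%) and in 90 of the 111 cells of library 6 (81.1%), but in 8 of 18 in library 7 (44.4%) and in 1 of 10 in library 8. The median per-cell sum of the 3 genes was 5.16, 5.23, 1.85 and 0 UMIs per 10000. The 10 cells of library 8 stood apart, with 4.44 UMIs per 10000 of *Hapln1*, a link protein of cushion matrix, and 3.71 of *Pdlim3*, where libraries 5 and 6 had 0.508 and 0.453 of *Hapln1* and 0.402 and 0.394 of *Pdlim3*. Results are therefore given over all 4 libraries and with the Dkk2 Mab21l2 cells of libraries 5 and 6 alone, where the fits still hold the other classes of all 4 libraries.

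**Figure D1:**
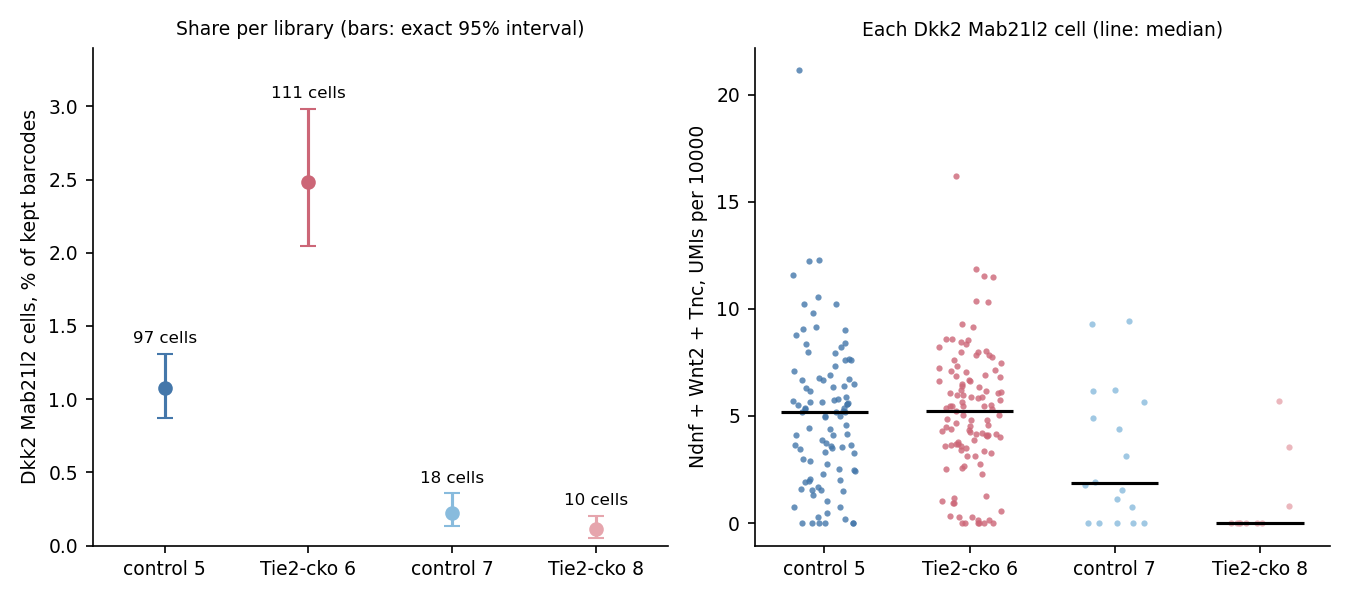
Left, the percentage of kept barcodes that were Dkk2 Mab21l2 cells in each library, with exact 95% intervals and the number of cells, and right, the sum of *Ndnf*, *Wnt2* and *Tnc* in each of these cells in UMIs per 10000, with lines at the medians. Libraries 5 and 6 hold 97 and 111 cells with medians of 5.16 and 5.23, and libraries 7 and 8 hold 18 and 10 with medians of 1.85 and 0.

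The edge of the gate was as follows. Cells with exactly 1 UMI of each gene numbered 9, 8, 6 and 6 in libraries 5 to 8, and at least 2 of *Ndnf*, *Wnt2* and *Tnc* were found in 66.7, 12.5, 0 and 0% of them. Among cells with at least 2 UMIs of each gene the percentages were 85.5, 98.6, 100 and 0, from 62, 70, 6 and 2 cells. Just outside, 64, 49, 79 and 67 cells had *Dkk2* but no *Mab21l2*, of which 12.5, 16.3, 2.53 and 2.99% held at least 2 of the 3 genes. Cells with *Mab21l2* alone numbered 256, 124, 154 and 248, with 12.5, 25, 1.95 and 2.82%. Of cells dropped for *Epcam* alone, 90% of 10 in library 5 and 100% of 7 in library 6 held at least 2 of the 3 genes, with no such cell in libraries 7 and 8. Of those dropped for *Barx1* alone the share was 44.4% of 18 in library 5, 83.9% of 31 in library 6, 1 of 2 in library 7 and 0 of 3 in library 8.

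*Dkk2* (ENSMUSG00000028031) lies on chromosome 3 of GRCm38 at 132085292 to 132180304 on the forward strand, and *Mab21l2* (ENSMUSG00000057777) on the reverse strand of the same chromosome at 86545581 to 86548629. Levels below are UMIs per 10000 over the summed counts of a class in a library, which came to 2560791, 3883035, 269520 and 191578 UMIs for the Dkk2 Mab21l2 cells of libraries 5, 6, 7 and 8. *Dkk2* stood at 1.45, 1.70, 1.97 and 0.679 and *Mab21l2* at 1.73, 2.04, 1.56 and 1.2. Both levels were set by the gate.

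The 3 other genes of the name were not used by the gate, but they were known to go with it, so they are described without a test, and their place in the fits and lists below is no evidence for them. *Ndnf* (chromosome 6 at 65671590 to 65712326) stood at 0.996, 0.997 and 0.816 in libraries 5, 6 and 7 and had no UMI in library 8, where 3 UMIs would have given 0.157. In epicardial cells, gated on at least 3 UMIs per 10000 of the uroplakins *Upk3b* and *Upk1b*, it stood at 0.027, 0.0644, 0.00356 and 0.00275. *Wnt2* (chromosome 6 at 17988940 to 18030585) stood at 2.19, 2.30, 1.04 and 0.679, against 0.166, 0.335, 0.0925 and 0.105 in epicardial cells. *Tnc* (chromosome 4 at 63959785 to 64047015) stood at 1.73, 1.76, 1.11 and 0.418, against at most 0.192 in epicardial cells. Apart from *Ndnf* in library 8, each gene was higher in the Dkk2 Mab21l2 cells than in the epicardial cells of the same library.

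Shares of cells were compared after thinning each cell to 5500 UMIs, which left out 1 and 2 of these cells in libraries 5 and 6. *Wnt2* was then detected in 62.5, 67, 44.4 and 10% of the Dkk2 Mab21l2 cells of libraries 5, 6, 7 and 8, and in 82.5, 88.3, 50 and 20% before thinning. Red blood cells, which should lack *Wnt2* and had median depths of 35079, 62884, 25922.5 and 35591.5 UMIs, gave 1.75, 0.5, 1 and 0.521%. In the same libraries epicardial cells gave 9.47, 11.6, 4 and 5.5%, and CMs, with median depths of 26750, 46181, 20291 and 22298 UMIs, gave 18.5, 19.2, 13.8 and 10.8%. The shares in libraries 5, 6 and 7 stood above all of these, and that of library 8 did not exceed the CMs. *Ndnf* was detected in 42.7, 33.9 and 38.9% of thinned cells in libraries 5, 6 and 7, where CMs gave at most 1% and epicardial cells at most 3.47%.

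To place the cells among their neighbours, counts were summed per library and class and compared with epicardial cells (339, 181, 431 and 671 cells in libraries 5 to 8), with *Barx1* *Foxf1* mesenchyme (260, 284, 24 and 67) and with *Postn* *Twist1* *Hapln1* mesenchyme, the cushion-type mesenchyme of the heart (406, 183, 693 and 679). Values are log2 fold changes ± SE over 16 sums from edgeR's quasi-likelihood test with the library as a block. Its Benjamini-Hochberg adjusted p, over 12361 genes, says only whether the libraries repeated a difference between classes that the gates had defined. The 15 genes used by the gates were left out. P-values measure how far the differences between classes varied over these 4 libraries, once the level of each library was taken out by the block. The classes shared the same estimate of this spread, which may be technical in part.

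Against epicardial cells 1102 genes were higher (8.92% of those tested) and 1737 lower (14.1%). Against *Barx1* *Foxf1* mesenchyme 1651 were higher (13.4%) and 1218 lower (9.85%), and against *Postn* *Twist1* *Hapln1* mesenchyme 1968 were higher (15.9%) and 2117 lower (17.1%). The median log2 fold change over all genes was -0.03, -0.01 and -0.02. The counts of gene lists below are to be read beside these percentages, and a count near them does not set a list apart from other genes. The balance against *Barx1* *Foxf1* mesenchyme depended on the fit, with 1466 higher and 1563 lower under upper quartile scaling and 1557 higher and 1670 lower without library 8. Against *Postn* *Twist1* *Hapln1* mesenchyme it turned as well, with 2212 higher and 1987 lower under upper quartile scaling, 1857 and 1787 by DESeq2, and 2282 and 2149 with the Dkk2 Mab21l2 cells of libraries 5 and 6 alone. Libraries 5 and 6 carried most of these calls. Without library 5 the totals of 2839, 2869 and 4085 became 1529, 1308 and 2422, and without library 6 they became 1641, 1230 and 2392, whereas with the Dkk2 Mab21l2 cells of libraries 5 and 6 alone, and the other classes of all 4 libraries, they were 3016, 3205 and 4431. Without the library block 1819 genes passed against *Barx1* *Foxf1* mesenchyme. The *Barx1* *Foxf1* cells of libraries 7 and 8 differed from those of 5 and 6 in *Prrx1*, with 2.91 and 1.86 UMIs per 10000 against 0.31 and 0.124. They numbered 24 and 67, against 260 and 284 in libraries 5 and 6, so most cells of that class came from libraries 5 and 6.

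Genes higher than in each of the 3 other classes numbered 256 (2.07% of those tested), of which 91 were higher in every library, and genes lower than in each numbered 111 (0.898%). With the cells of libraries 5 and 6 alone 369 genes were higher than in all 3, and 251 of the 256 were among these 369. By the smallest of the 3 fold changes the leading genes included *Ppp2r2b*, the agouti gene *a*, *Rgcc*, *Alx4*, *Alx1*, *Lix1*, *Col12a1*, *Irx1*, *Wnt6*, *Zar1*, *Ebf3* and *March11*, beside *Ndnf* and *Wnt2* of the working name. The call of *Ebf3* against *Barx1* *Foxf1* mesenchyme (3.08 ± 0.46) was lost under DESeq2 (1.86, DESeq2 adjusted p = 0.0913). *Alx1* and *Alx4* encode related homeodomain proteins of the mesenchyme of face, limb bud and body wall, *Irx1* encodes an Iroquois homeodomain protein and *Ebf3* a factor of mesodermal and neuronal differentiation.

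*Alx1* (chromosome 10 at 102998707 to 103030215) stood at 0.523, 0.644, 0.557 and 0.104 UMIs per 10000 in libraries 5, 6, 7 and 8. Its log2 fold change was 3.49 ± 0.28 against epicardial cells (edgeR adjusted p = 5.21e-09), 3.67 ± 0.31 against *Barx1* *Foxf1* and 6.20 ± 0.37 against *Postn* *Twist1* *Hapln1* mesenchyme. The level of *Alx1* was thus alike in libraries 5, 6 and 7 and lower in library 8. *Alx4* stood at 0.125, 0.17 and 0.0742 in libraries 5, 6 and 7 and had no UMI in library 8. *Alx4* was higher by 3.73 ± 0.43, 4.05 ± 0.47 and 7.54 ± 0.65 than in the 3 classes. Of these 12 leading genes outside the working name, 6 had no UMI in library 8.

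*Lix1*, named for its expression in limb buds, was a leading gene with a like level in all 4 libraries. It stood at 1.39, 1.26, 1.86 and 1.30, against 0.0749, 0.0936, 0.0569 and 0.0584 in epicardial cells, and the ranges of the classes were far apart. Its log2 fold changes were 4.17 ± 0.14, 3.32 ± 0.15 and 3.83 ± 0.14 (edgeR adjusted p = 1.06e-14, 1.69e-12 and 3.47e-14). *Col12a1*, a collagen of fibril surfaces, stood at 0.543, 0.652, 0.482 and 0.157 and was higher by 3.27 ± 0.19, 3.62 ± 0.22 and 4.61 ± 0.22. *Ppp2r2b*, which encodes a regulatory subunit of a protein phosphatase, stood at 1.06, 1.12 and 1.00 in libraries 5, 6 and 7 and had no UMI in library 8, and *Wnt6*, which encodes a Wnt ligand, stood at 0.402, 0.476 and 0.408 with no UMI in library 8.

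**Figure D2:**
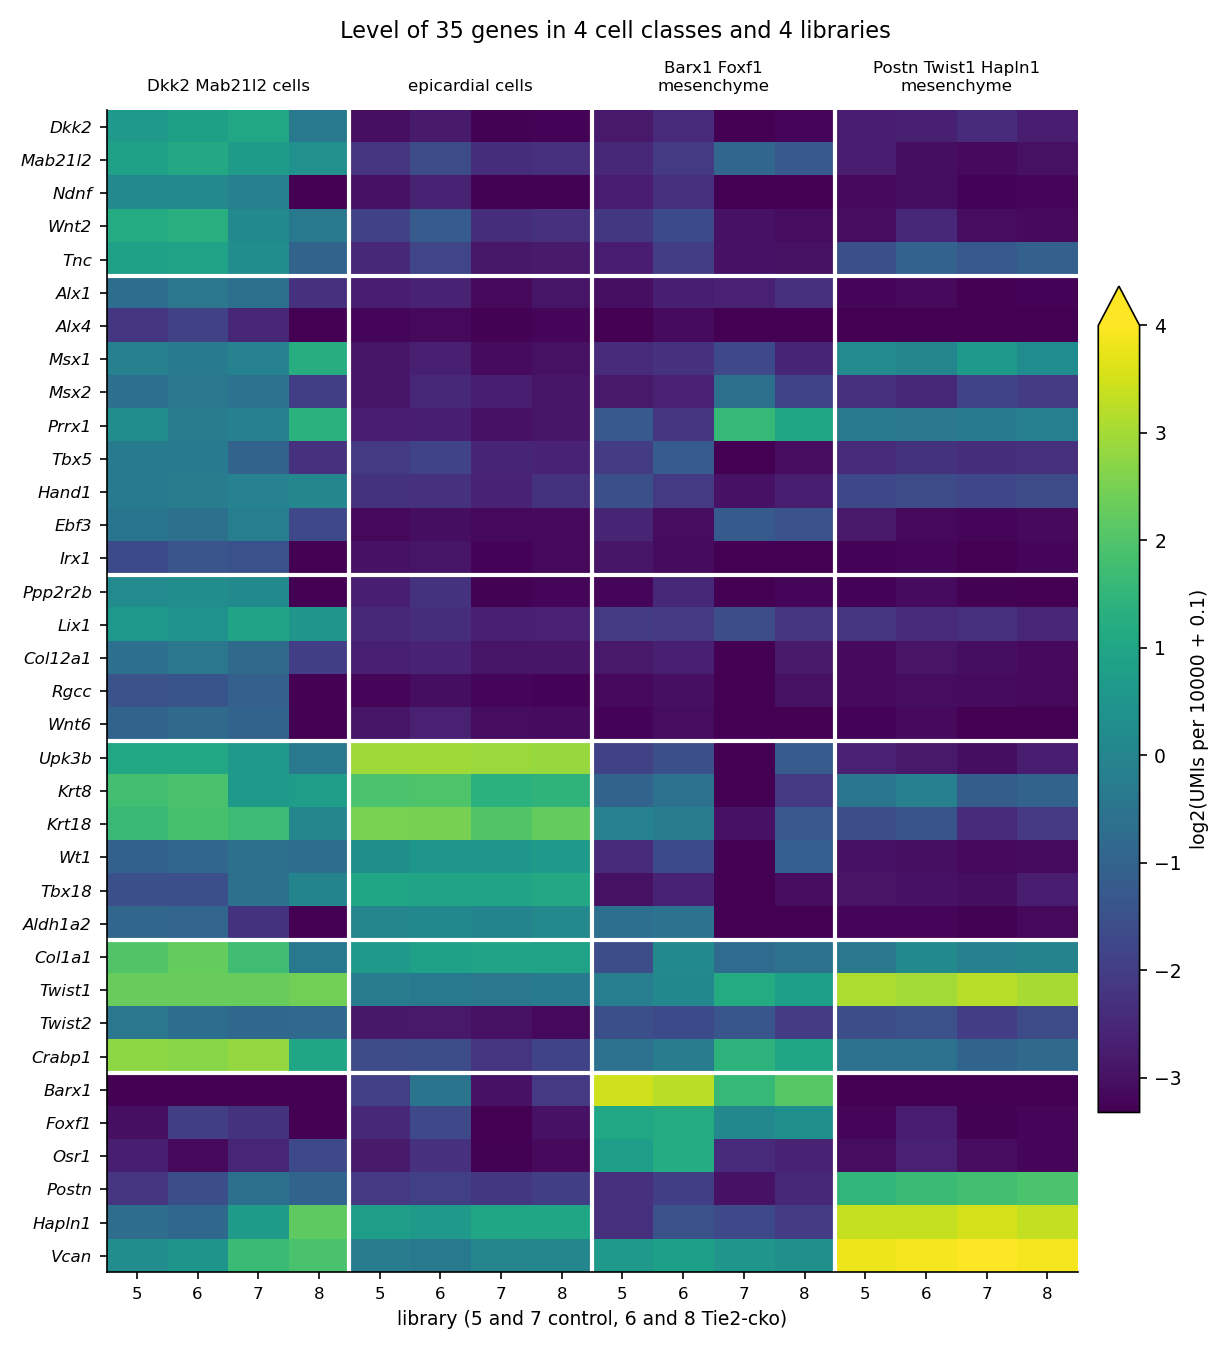
Levels of 35 genes in the 4 classes and 4 libraries, as log2 of UMIs per 10000 plus 0.1, with colour capped at 4. *Lix1* is high in the Dkk2 Mab21l2 cells of all 4 libraries (1.26 to 1.86 UMIs per 10000), whereas *Alx4*, *Ppp2r2b* and *Wnt6* have no UMI in those of library 8.

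The genes of mesothelium were present at lower levels than in the epicardium. Of 16 mesothelial and epicardial genes 14 were lower and 1 (*Bnc2*) higher than in epicardial cells, with a median log2 fold change of -2.0. *Bnc2* no longer passed under DESeq2, without library 5 or without library 7. Against *Barx1* *Foxf1* mesenchyme 8 were higher and 1 lower (0 lower without library 5 or 6 or by DESeq2; median 1.61), and against *Postn* *Twist1* *Hapln1* mesenchyme 13 were higher and none lower (median 3.44). The counts were the same with the cells of libraries 5 and 6 alone. The gates of both mesenchymal classes left out cells past the epicardial threshold for uroplakins, and the gate of the Dkk2 Mab21l2 cells did not. The counts of higher genes against these classes are therefore in part set by the gates, and counts without such cells are given below. The summed level of the list was 9.58, 10.6, 9.05 and 6.63 UMIs per 10000 in the Dkk2 Mab21l2 cells of libraries 5 to 8, between the 22.3, 22.9, 19.7 and 21.7 of epicardial cells and the 1.55, 1.66, 1.14 and 1.36 of *Postn* *Twist1* *Hapln1* mesenchyme. *Krt8* was its most abundant gene in libraries 5, 6 and 8 and *Krt18* in library 7, and *Msln* and *Muc16*, which mark mature mesothelium, had 2 and 1 UMIs in all.

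The members of the list fell by different amounts. *Krt8*, a keratin of simple epithelia, stood at 3.33, 3.62, 1.45 and 1.62 in the Dkk2 Mab21l2 cells and at 3.67, 3.83, 2.48 and 2.64 in epicardial cells, and the difference of -0.37 ± 0.14 did not pass (edgeR adjusted p = 0.0671). It was higher by 2.93 ± 0.18 and 2.30 ± 0.15 than in the mesenchymal classes. The keratins *Krt18* (-0.98 ± 0.19) and *Krt19* (-2.34 ± 0.23) were lower than in epicardial cells. *Wt1*, a regulator of mesothelial development, stood at 0.387, 0.433, 0.557 and 0.522, against 1.15, 1.34, 1.34 and 1.44 in epicardial cells, and was lower by a log2 fold change of -1.62 ± 0.19. *Tbx18* stood at 0.246, 0.245, 0.557 and 0.887 against 1.93, 1.84, 1.83 and 2.06 (-2.74 ± 0.18), and *Tcf21* at 0.141, 0.237, 0.26 and 0.783 against 1.51, 1.51, 2.49 and 3.01 (-2.94 ± 0.20). For these 3 transcription factors of the epicardium no Dkk2 Mab21l2 library reached the lowest epicardial library. *Bnc1*, a further transcription factor of the list, fell less (-0.97 ± 0.14), and *Bnc2* was higher (0.81 ± 0.28, adjusted p = 0.0408).

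Outside the list, among genes at 1 or more UMI per 10000 in epicardial cells and with the same direction in every library, those that fell furthest below the epicardium included *Hpgd*, which encodes a prostaglandin-degrading enzyme (0.0937, 0.0644, 0.334 and 0.0522 against 1.59, 1.34, 1.77 and 1.9, a log2 fold change of -4.11 ± 0.16). The potassium channel subunit gene *Kcne1l* (-4.08 ± 0.16), the proteoglycan gene *Dcn* (-3.07 ± 0.20), *Apela*, which encodes a ligand of the apelin receptor (-3.06 ± 0.25), and *S100a6* (-2.95 ± 0.13) followed. *Nrk*, *Itga4*, *Aplp1*, *Col4a1*, *Gucy1a1*, *Pdlim1* and *Krt7* were lower by log2 fold changes between -2.79 and -2.35. The adjusted p of each of these genes was at most 1.64e-08, that of *Itga4*.

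The cells were also split by their uroplakins. Of the 236 cells 50 themselves reached the epicardial threshold for uroplakins, 18, 28, 3 and 1 in libraries 5 to 8, and they were kept as Dkk2 Mab21l2 cells. In library 5 the 18 cells with high uroplakin stood at 0.862 UMIs per 10000 of *Tbx18* and the other 79 at 0.0108, and in library 6 the 28 stood at 0.641 and the other 83 at 0.0317. *Wt1* stood at 0.933 against 0.178 and 0.796 against 0.238, and *Krt19* at 1.36 against 0.156 and 1.10 against 0.131. The split was made on genes of the same tissue, so these differences are described only.

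The summed level of the mesenchymal list was close in both sets of cells, at 32.7 in those with high uroplakin and 29.5 in the others of library 5, and at 33.2 and 35.0 in library 6. Some single genes ran the other way from the uroplakins. *Crabp1*, which encodes a retinoic acid binding protein, stood at 1.2 in the cells with high uroplakin and 8.65 in the others of library 5, and at 1.19 and 9.16 in library 6. *Hand1*, a transcription factor of lateral mesoderm, stood at 0.113 against 0.906 and 0.273 against 1.03, and *Twist1*, a factor of mesenchymal cells, at 2.04 against 5.88 and 2.53 against 6.03. *Wnt2* (1.92 against 2.29 and 2.21 against 2.35) and *Tnc* (1.63 against 1.76 and 1.55 against 1.88) were close in both sets of cells, and *Krt8* was found in both at 5.13 against 2.64 and 4.90 against 2.93. Cells with high uroplakin were deeper, with medians of 37214.5 against 19176 UMIs in library 5 and 40318 against 28525 in library 6. Whether these barcodes hold 2 cells was not tested, and Scrublet marked 5 of the 236 cells as doublets. Of the 260 barcode sequences found in 2 or more libraries, 2 belonged to these cells.

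With the cells of high uroplakin left out, 15 of the 16 mesothelial genes were lower than in epicardial cells. Against *Barx1* *Foxf1* mesenchyme 4 were higher and 3 lower (median 0.07), and against *Postn* *Twist1* *Hapln1* mesenchyme 9 were higher and 1 lower (median 2.12). Leaving out cells picked for a mesothelial gene lowers such genes in the rest. The gates of the mesenchymal classes had left out such cells as well, so against those classes the same limit then held on both sides. These counts are given as a description. The cells are called by their gate here.

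**Figure D3:**
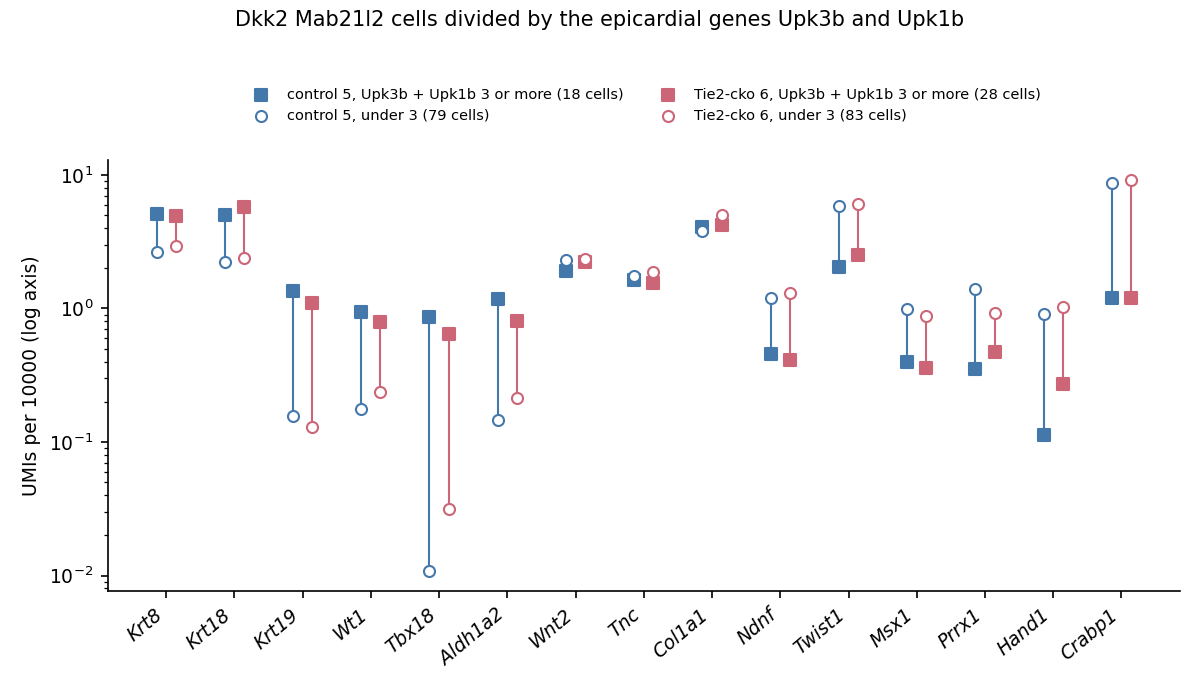
Levels of 15 genes, in UMIs per 10000 on a log axis, in the Dkk2 Mab21l2 cells of libraries 5 and 6, split at 3 UMIs per 10000 of *Upk3b* and *Upk1b* (filled squares at or above, open circles below). *Tbx18*, *Wt1* and the keratins are higher in the cells with high uroplakin, *Crabp1*, *Hand1* and *Twist1* are higher in the others, and *Wnt2* and *Tnc* are close in both.

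Genes of limb bud and body wall mesenchyme were among those with the largest rises over the epicardium. Of 7 tested genes of that list 6 were higher and none lower than in epicardial cells (median 3.73), 5 were higher and 1 lower than in *Barx1* *Foxf1* mesenchyme (1.67), and 4 were higher than in *Postn* *Twist1* *Hapln1* mesenchyme with none lower (1.51). Without library 6 the counts of higher genes were 4, 2 and 2, and with the cells of libraries 5 and 6 alone no count changed. *Prrx1*, a homeobox gene of limb and lateral mesenchyme, stood at 1.11, 0.762, 0.816 and 2.45 against 0.0503, 0.0527, 0.0285 and 0.035 in epicardial cells (log2 fold change 5.04 ± 0.60, edgeR adjusted p = 1.3e-06). *Msx1*, a homeobox gene of tissues under BMP signalling, stood at 0.828, 0.695, 0.853 and 2.24 and was higher by 4.79 ± 0.27. Both genes were highest in library 8. Neither passed against *Postn* *Twist1* *Hapln1* mesenchyme (0.85 ± 0.43 for *Prrx1* and -0.30 ± 0.18 for *Msx1*, edgeR adjusted p = 0.14 and 0.23), and against *Barx1* *Foxf1* mesenchyme *Msx1* was higher (3.10 ± 0.26) while the 1.06 ± 0.49 of *Prrx1* did not pass (adjusted p = 0.13). The summed level of the list was 4.92, 4.38, 3.64 and 6.42 UMIs per 10000 in the Dkk2 Mab21l2 cells of libraries 5 to 8, and the 4.13, 4.29, 4.40 and 4.25 of *Postn* *Twist1* *Hapln1* mesenchyme lay within that range, whereas epicardial cells had at most 1.01. *Tbx5*, required for the forelimb, the heart and the lung, stood at 0.699, 0.724, 0.408 and 0.104 and was higher by 2.24 ± 0.27, 1.67 ± 0.28 and 2.38 ± 0.28.

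*Crabp1* (chromosome 9 at 54764748 to 54773110) stood at 6.59, 6.37, 7.12 and 1.93 in the Dkk2 Mab21l2 cells of libraries 5, 6, 7 and 8 and at 0.226, 0.231, 0.119 and 0.179 in epicardial cells. Its fold changes were 4.94 ± 0.33, 2.61 ± 0.33 and 3.60 ± 0.30. In thinned cells of libraries 5, 6, 7 and 8 it was detected in 80.2, 72.5, 61.1 and 40% of the Dkk2 Mab21l2 cells. In *Barx1* *Foxf1* mesenchyme the shares were 18.3, 13.1, 65.2 and 40.9%. *Crabp1* was thus detected more often than in that class in libraries 5 and 6 only. It also belongs to a list of 10 pharyngeal and neural crest genes, of which 7 were tested and 4 were higher than in epicardial cells (2 without library 5 or by DESeq2), 2 than in *Barx1* *Foxf1* and 3 than in *Postn* *Twist1* *Hapln1* mesenchyme, with 0, 1 and 1 lower (the second count 0 without library 5, 7 or 8). The 4 genes above epicardial cells were *Crabp1*, *Alx1*, *Dlx5* (3.98 ± 1.21) and *Dlx6* (4.67 ± 1.47). *Dlx5* was also the gene below *Barx1* *Foxf1* mesenchyme. Of the same list, *Sox10*, *Tfap2a*, *Tfap2b*, *Foxd3* and *Lhx6* had no UMI in these cells of libraries 5 and 6.

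Other named genes above the epicardium were *Mpped2* (3.21 ± 0.24), the neuronal growth cone gene *Gap43* (2.76 ± 0.14), the collagen gene *Col11a1* (2.57 ± 0.14), *Serpinf1* (2.34 ± 0.26), the glypican gene *Gpc6* (1.93 ± 0.15), *Cd24a* (1.93 ± 0.17), *Prrx2* (1.79 ± 0.26) and *Csrp2* (1.62 ± 0.11). Of 17 tested genes of general mesenchyme 8 were higher than in the epicardium and 3 lower (5 and 2 by DESeq2). Against *Barx1* *Foxf1* mesenchyme the numbers were 8 and 2 (5 and 2 without library 5), and against *Postn* *Twist1* *Hapln1* mesenchyme 6 and 8. *Twist2* was higher than in all 3 classes, by 4.15 ± 0.22, 1.41 ± 0.19 and 1.25 ± 0.17. *Vim* was the most abundant gene of the list.

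The matrix genes differed by comparison. Of 32 tested 10 were higher and 12 lower than in the epicardium, 19 higher and none lower than in *Barx1* *Foxf1* mesenchyme (13 and 1 without library 6), and 9 higher and 15 lower than in *Postn* *Twist1* *Hapln1* mesenchyme, with *Tnc* of the working name among the higher genes each time. *Col1a1*, the main collagen of connective tissue, stood at 3.9, 4.75, 3.3 and 0.679 against 1.46, 1.73, 1.83 and 1.75 in epicardial cells. It was higher in libraries 5, 6 and 7 and lower in library 8, with fold changes of 1.06 ± 0.23, 2.68 ± 0.28 and 2.17 ± 0.24. *Fbln5*, which takes part in elastic fibre assembly, was higher than in all 3 classes (2.92 ± 0.36, 4.01 ± 0.46 and 3.09 ± 0.38), at 0.269, 0.17, 0.148 and 0 UMIs per 10000. The basement membrane collagen *Col4a1* was lower than in the epicardium (-2.55 ± 0.17) and than in *Postn* *Twist1* *Hapln1* mesenchyme (-1.40 ± 0.18).

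The Wnt pathway was followed beyond *Dkk2* and *Wnt2*. Of its target and effector genes, 4 of 7 were higher than in epicardial cells (median 2.12), 3 than in *Barx1* *Foxf1* mesenchyme, and 4 than in *Postn* *Twist1* *Hapln1* mesenchyme with 1 lower, where the number higher was 1 without library 5 and 2 without library 6 or by DESeq2. *Axin2*, a feedback inhibitor that Wnt signalling induces, stood at 0.262, 0.335, 0.223 and 0.209 and was higher by 2.56 ± 0.23, 1.91 ± 0.24 and 1.49 ± 0.22. *Lef1*, a transcription factor of the pathway, stood at 0.578, 0.554, 0.89 and 1.2 (3.26 ± 0.20, 1.87 ± 0.20 and 0.62 ± 0.17), and *Nkd1*, a further feedback inhibitor, at 0.594, 0.662, 0.408 and 0.261 (2.12 ± 0.20, 1.78 ± 0.22 and 0.77 ± 0.19). These 3 genes passed in all 3 comparisons.

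Among the ligands, *Wnt6* was higher than in all 3 classes (3.20 ± 0.28, 5.20 ± 0.37 and 6.08 ± 0.37). Of the 8 ligands tested 2 were higher and 4 lower than in epicardial cells, and *Wnt2*, a gene of the working name, is counted as higher in all 3 comparisons. Compared with *Barx1* *Foxf1* mesenchyme 3 were higher and 3 lower, and against *Postn* *Twist1* *Hapln1* mesenchyme 3 and 2, of which 1 was lower in each without library 5 or 6. The secreted antagonists other than *Dkk2* were higher in 4 of 7 in each comparison, with none lower except 2 against *Postn* *Twist1* *Hapln1* mesenchyme (1 without library 5 or 6). *Dkk1*, a secreted Wnt inhibitor, stood at 0.703, 0.654, 1.37 and 1.25 against 0.0172, 0.038, 0.0273 and 0.0137 in epicardial cells (5.19 ± 0.42). *Sfrp1*, which binds Wnt proteins, stood at 3.62, 4.11, 1.67 and 1.10 and was higher by 2.13 ± 0.19, 1.52 ± 0.19 and 1.48 ± 0.18. *Sfrp1* was about as high in both of libraries 5 and 6 and lower in 7 and 8, and *Dkk1* had the opposite order.

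Of 18 tested Wnt receptors and R-spondins 7 were higher and 3 lower than in epicardial cells. Relative to *Barx1* *Foxf1* mesenchyme 4 were higher and 8 lower, which became 1 and 3 without library 5, 0 and 5 without library 6 and 1 and 6 by DESeq2. Against *Postn* *Twist1* *Hapln1* mesenchyme 5 were higher and 4 lower (4 and 1 without library 5, 5 and 2 without library 6). Over all tested genes 15.9% were higher and 17.1% lower in that comparison. *Ror1*, a receptor for non-canonical Wnt proteins, was higher than in all 3 classes (2.64 ± 0.33, 1.70 ± 0.33 and 3.71 ± 0.36), as was *Rspo2*, a secreted amplifier of Wnt signalling (3.69 ± 0.49, 1.28 ± 0.40 and 2.83 ± 0.46), at levels of 0.0781, 0.0773, 0.0371 and 0.

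Hedgehog genes set these cells apart from *Barx1* *Foxf1* mesenchyme in particular genes. *Ptch1*, the receptor and a target of the pathway, stood at 0.152, 0.134, 0.334 and 0.209 against 1.27, 1.14, 1.22 and 0.709 in *Barx1* *Foxf1* mesenchyme, with no overlap (-2.85 ± 0.18, edgeR adjusted p = 3.31e-10). *Gli1*, a target and effector, was lower too (-2.02 ± 0.30). *Gas1*, a co-receptor, was higher than in all 3 classes, at 2.85, 3.45, 2.41 and 2.87 (0.41 ± 0.09, 2.30 ± 0.11 and 2.62 ± 0.10). Over the list 3 of 8 were higher than in epicardial cells and none lower, 4 higher and 2 lower than in *Barx1* *Foxf1* mesenchyme (2 and 2 without library 5, but 3 and 4 without library 7 or with the cells of libraries 5 and 6 alone), and 4 higher and 1 lower than in *Postn* *Twist1* *Hapln1* mesenchyme (2 and 1 without library 5 or 6).

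Further differences from *Barx1* *Foxf1* mesenchyme were in genes of the posterior second heart field and in *Hox* genes. Of 11 tested genes of the posterior second heart field and sinus venosus 2 were higher and 6 lower, with *Osr1* at -5.51 ± 0.46 and *Isl1* at -3.85 ± 0.48. That list had 2 higher and 3 lower genes against epicardial cells (1 lower without library 5 or 6 or by DESeq2). Against *Postn* *Twist1* *Hapln1* mesenchyme it had 5 higher and 1 lower (0 lower without library 5 or 7). Of 13 tested *Hox* genes 1 was higher and 10 were lower (0 and 6 without library 5, without library 6 or by DESeq2, and 2 and 12 without library 8). In libraries 5 and 6, 19 of the 39 *Hox* genes had no UMI in the Dkk2 Mab21l2 cells. That number was 12 in *Barx1* *Foxf1* mesenchyme, 16 in epicardial cells and 20 in *Postn* *Twist1* *Hapln1* mesenchyme. Such numbers depend on the UMIs summed, which were not matched. The sums held 97 and 111 Dkk2 Mab21l2 cells, against 260 and 284, 339 and 181, and 406 and 183 cells of those classes. Against epicardial cells 6 *Hox* genes were higher and 3 lower (4 and 0 without library 6, 6 and 1 by DESeq2), and against *Postn* *Twist1* *Hapln1* mesenchyme 8 were higher. *Hoxb4*, which takes part in patterning the trunk, stood at 0.465, 0.621, 0.557 and 0.104 against 0.13, 0.168, 0.0261 and 0.0584 in epicardial cells and 0.73, 1.15, 0.204 and 0.534 in *Barx1* *Foxf1* mesenchyme. *Gap43* (3.70 ± 0.18), *Ahnak* (3.04 ± 0.19) and the actin-bundling gene *Pls3* (2.87 ± 0.19) were among the genes most above *Barx1* *Foxf1* mesenchyme that stood at 1 or more UMI per 10000 and had the same direction in every library. *Ifitm1* (-5.72 ± 0.37), the nuclear receptor gene *Nr2f2* (-2.56 ± 0.20), *Ier2* (-1.45 ± 0.15), *Crabp2* (-1.39 ± 0.44, with no call in 4 of the other fits, among them that without library 5, adjusted p = 0.0609), *Nmral1*, *Tshz2* and *Ldhb* were below it by the same rule.

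Against the cushion-type mesenchyme, among genes at 1 or more UMI per 10000 with the same direction in every library, the largest rises outside the genes already given were in the adhesion gene *Alcam* (4.44 ± 0.30), in *Krt18* (3.96 ± 0.23), in *Pkdcc* (3.51 ± 0.14), in *Ezr*, which encodes a linker of membrane and actin (3.33 ± 0.18), and in *Dlk1* (3.12 ± 0.40). *Igfbp7* (-5.51 ± 0.27), *Papss2*, an enzyme of sulfation (-5.18 ± 0.29), *Rtn1* (-4.46 ± 0.23), the cartilage collagen *Col9a3* (-4.30 ± 0.19), *Pdlim3* (-4.17 ± 0.35), the cardiac transcription factor *Tbx20* (-3.89 ± 0.21), *Ramp2* (-3.67 ± 0.23) and *Dpysl3* (-3.59 ± 0.28) were lowest against it by the same rule. Of 6 tested genes of the cushion list 1 was higher and 4 were lower, whereas 3 were higher and 2 lower than in epicardial cells, and 3 were higher than in *Barx1* *Foxf1* mesenchyme.

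BMP and retinoic acid genes moved in both directions. Over all tested genes 8.92, 13.4 and 15.9% were higher in the 3 comparisons and 14.1, 9.85 and 17.1% lower. *Bmp4*, a secreted BMP ligand, was higher than in all 3 classes at 1.08, 1.12, 1.00 and 0.783 (1.18 ± 0.19, 1.93 ± 0.21 and 2.37 ± 0.20), and so was *Bambi*, a membrane inhibitor of BMP signalling, at 2.98, 3.56, 3.41 and 2.61 (1.22 ± 0.13, 2.20 ± 0.16 and 0.96 ± 0.13). Both genes varied little between the 4 libraries. Over 18 tested BMP genes 4 were higher and 7 lower than in the epicardium (4 and 4 without library 5 or 6), 5 higher and 1 lower than in *Barx1* *Foxf1*, and 6 higher and 9 lower than in *Postn* *Twist1* *Hapln1* mesenchyme. *Aldh1a2*, the main enzyme of embryonic retinoic acid synthesis, stood at 0.43, 0.42, 0.111 and 0 (-1.50 ± 0.33 against the epicardium and 5.36 ± 0.62 against *Postn* *Twist1* *Hapln1* mesenchyme). Of 13 tested genes of that pathway 5 were higher and 3 lower than in epicardial cells, and 2 higher and 5 lower than in *Barx1* *Foxf1* mesenchyme (2 and 3 without library 6). Against *Postn* *Twist1* *Hapln1* mesenchyme 6 were higher and 2 lower (1 lower without library 6 or by DESeq2).

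In the FGF list 1 of 12 was higher and 6 were lower than in epicardial cells (3 lower without library 6), 1 higher and 7 lower than in *Barx1* *Foxf1* (2 lower without library 5 and 4 without library 6) and 4 higher and 3 lower than in *Postn* *Twist1* *Hapln1* mesenchyme (2 and 3 without library 6). The gene above the epicardium was *Fgfr1*, an FGF receptor (1.60 ± 0.18). Over all tested genes 8.92, 13.4 and 15.9% were higher in the 3 comparisons and 14.1, 9.85 and 17.1% lower. Lung bud genes were higher in 5 of 9, 4 of 9 and 8 of 9 tested, with 0, 3 and 0 lower, and without library 6 the second count was 2. *Tbx2*, a repressor of the T-box family, led that list against the epicardium at 0.5, 0.554, 0.26 and 0.47 (3.65 ± 0.37). In the list of septum transversum and liver mesenchyme 3, 5 and 3 of 11 were higher and 3, 5 and 4 lower, and against *Barx1* *Foxf1* mesenchyme 2 were higher without library 5 or by DESeq2 and 3 higher and 3 lower without library 6. *Gata4* was among the lower genes there (-0.88 ± 0.24) and changed sign in 1 or more of the fits with another scaling or a library left out. For *Gata4* the levels were 0.195, 0.191, 0.408 and 0.679 against 0.303, 0.555, 0.0583 and 0.315.

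**Figure D4:**
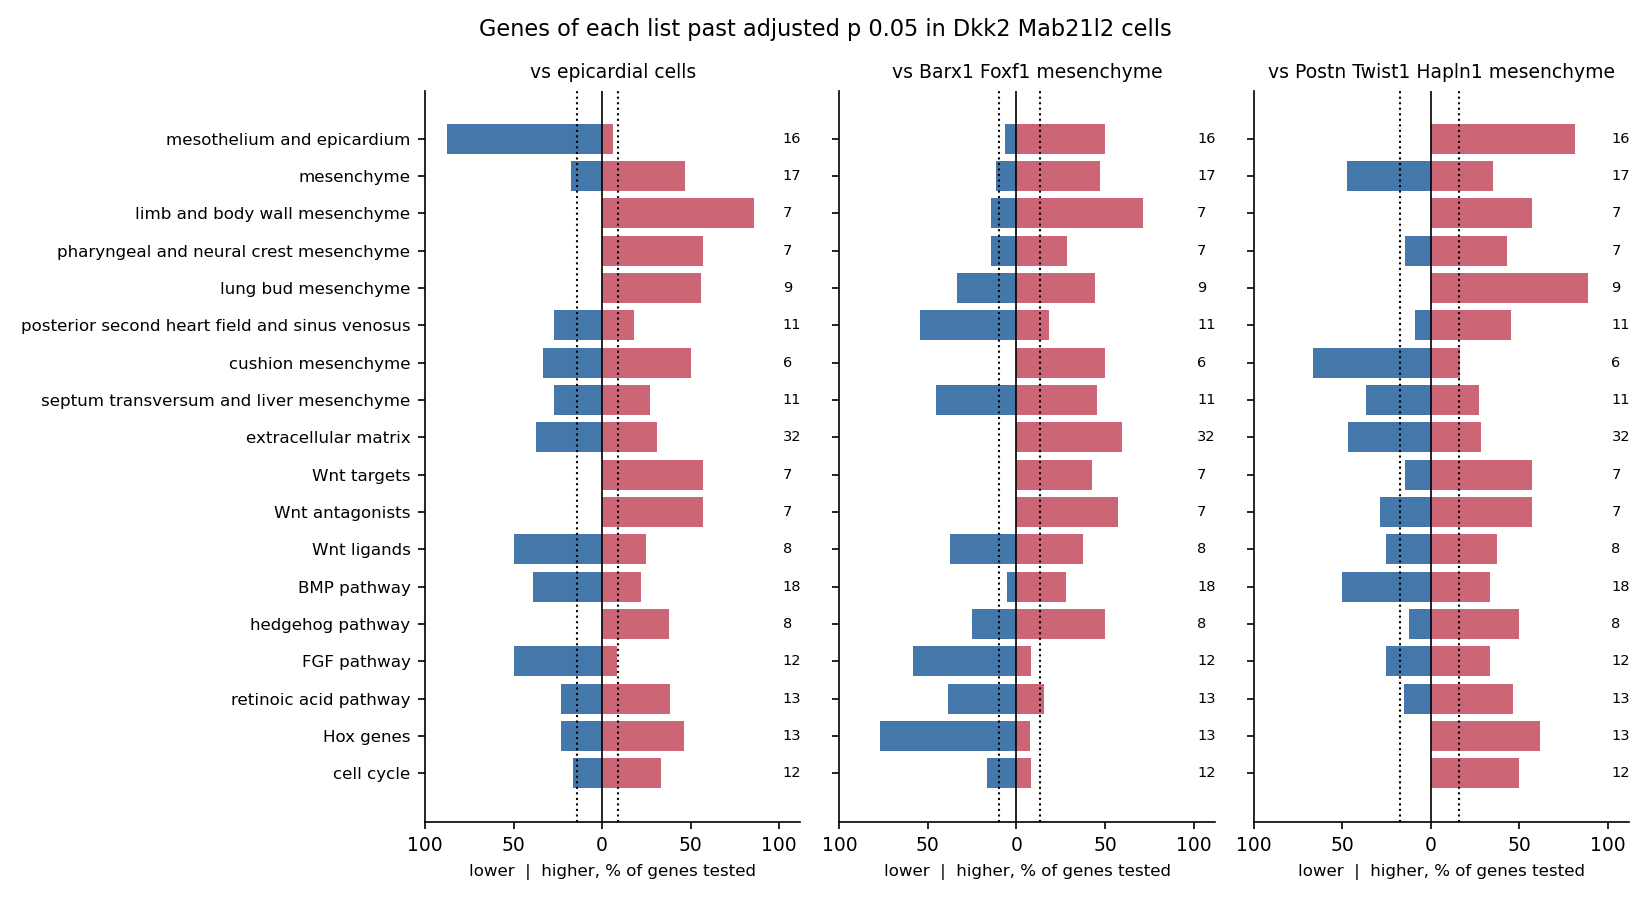
Percentage of the tested genes of 18 lists that were higher or lower in Dkk2 Mab21l2 cells at an adjusted p under 0.05, in 3 comparisons, with the number tested at the right and dotted lines at the percentage of all tested genes. The mesothelial list is 14 of 16 lower against epicardial cells and 13 of 16 higher against *Postn* *Twist1* *Hapln1* mesenchyme, and the limb and body wall list is 6 of 7 higher against epicardial cells. The gates of both mesenchymal classes left out cells of high uroplakin, and that of the Dkk2 Mab21l2 cells did not.

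Proliferation genes depended on the libraries used. Over all tested genes 8.92, 13.4 and 15.9% were higher in the 3 comparisons and 14.1, 9.85 and 17.1% lower. Of 12 cell cycle genes 4, 1 and 6 were higher and 2, 2 and 0 lower in the 3 comparisons. Without library 5 these became 0, 0 and 0 higher and 1, 1 and 0 lower. Without library 6 they became 0, 0 and 3 higher and 1, 1 and 0 lower. Against epicardial cells the fits also moved the other way, to 7 higher without library 8 or under upper quartile scaling, and to 7 higher and 4 lower with the cells of libraries 5 and 6 alone. Immediate early and heat shock genes were lower in 4 of 6 against the epicardium (2 without library 5 or 6), and 2 and 1 were higher against the other classes (0 and 0 without library 6), with 1 and 2 lower (the latter 4 without library 8). *Fos* stood at 0.0508, 0.214, 0 and 0.418 in the Dkk2 Mab21l2 cells and at 0.624, 0.657, 0.614 and 1.28 in epicardial cells.

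Markers of the other cell types that the dissection could hold were followed as well. The gate capped or barred some of them (*Tnnt2* of the CM list, *Hbb-y* of the red blood cell list, *Pecam1*, *Cdh5* and *Ecscr* of the endothelial list and *Epcam* of the epithelial list), so the low sums are in part set by it, and these genes were not tested. The 7 CM genes summed to 9.15, 5.39, 11.6 and 12.8 UMIs per 10000 (*Actc1* the most abundant), with 0, 0 and 1 of 6 tested genes called (the last 0 without library 5, 6 or 7, and the second 1 without library 6 or 8). The 6 red blood cell genes summed to 45, 10.8, 21.1 and 7.15, with none of 5 called, but 2 were lower than in *Barx1* *Foxf1* mesenchyme without library 6, without library 8 or under upper quartile scaling, and 2 lower than in *Postn* *Twist1* *Hapln1* mesenchyme without library 6. Endothelial genes summed to 0.301, 0.198, 0.445 and 0.731, and 1 of 4 was lower in each comparison. Of these endothelial counts that against *Barx1* *Foxf1* mesenchyme was 0 without library 5, without library 6 or by DESeq2 and 2 without library 8, and that against *Postn* *Twist1* *Hapln1* mesenchyme was 4 without library 8. Immune genes summed to at most 0.0391 and neural genes to at most 0.668. Of 2 immune genes 1, 0 and 1 were lower (0, 0 and 0 without library 6, and 2 in the last comparison without library 7). Of 4 neural genes 1, 1 and 2 were lower and 0, 1 and 1 higher. Against *Barx1* *Foxf1* mesenchyme 0 neural genes were lower without library 6 or by DESeq2. Without library 6, 3 were lower than in *Postn* *Twist1* *Hapln1* mesenchyme, and without library 8, 1 was higher than in epicardial cells. None of the epithelial list passed the filter on low counts, and *Foxa2* and *Cldn4*, which the gate did not use, had no UMI in libraries 5 and 6. The 4 hepatic genes were lower than in *Postn* *Twist1* *Hapln1* mesenchyme, among them *Apoa2* (-2.64 ± 0.81), and none was called without library 6 or by DESeq2, and *Apoa2* changed sign in 1 or more of the fits with another scaling or a library left out. In library 6 *Apoa2* stood at 0.908 in that mesenchyme, against 0.051, 0.00873 and 0.0346 in libraries 5, 7 and 8. The part of these cell types in the results was not tested.

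The genes of the receptor that the study removed were next examined. *Tek* had 18, 9, 2 and 1 UMIs in the Dkk2 Mab21l2 cells of libraries 5, 6, 7 and 8, a level of 0.0703, 0.0232, 0.0742 and 0.0522, and it was lower than in epicardial cells (-2.21 ± 0.42, edgeR adjusted p = 0.000443). In endothelial barcodes, with at least 5 UMIs per 10000 of *Pecam1*, *Cdh5* and *Ecscr*, *Tek* stood at 0.853 and 1.24 in the controls and at 0.381 and 0.300 in Tie2-cko, so that the genotypes did not overlap. *Tie1* had 1 UMI in all in the Dkk2 Mab21l2 cells. *Angpt1*, the activating ligand of TIE2, stood at 0.121, 0.149, 0.186 and 0.209 and was higher than in epicardial cells (1.59 ± 0.25, edgeR adjusted p = 4.21e-05) and than in *Postn* *Twist1* *Hapln1* mesenchyme (0.90 ± 0.24, adjusted p = 0.00511), while the 0.68 ± 0.25 against *Barx1* *Foxf1* mesenchyme did not pass (adjusted p = 0.0505).

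The share of Dkk2 Mab21l2 cells could not be told apart between the genotypes. It was 0.651% ± 0.601 in controls and 1.30% ± 1.68 in Tie2-cko hearts (SD over n = 2 libraries), a difference of 0.647 percentage points with an exact permutation p of 1, two-sided, where 2 against 2 libraries allow no p below 0.333. The difference ran from -0.539 without library 6 to 1.83 without library 8. Each genotype had 1 library rich and 1 poor in these cells.

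For expression, an edgeR quasi-likelihood test of Tie2-cko against control over the sums of all 4 libraries called 0 of 8758 genes higher (0%) and 0 lower (0%), with 30 genes at an unadjusted p under 0.05 and a smallest adjusted p of 0.457. DESeq2 called 1 gene, *Hbb-bh1*, which was lower (-1.94, adjusted p = 0.00755). This test was added after seeing the data and sets 1 rich and 1 poor library of each genotype against each other. Library 6 was also set against library 5 alone, 1 library of each genotype, with no test, and the values describe these libraries. Of 1594 genes at 1 or more UMI per 10000 in either library, 0 (0%) were at least 2-fold higher in library 6 and 6 (0.376%) were at least 2-fold lower. They were 5 haemoglobin genes and *Tnnc1*, which encodes cardiac troponin C. *Hba-a1* stood at 5.98 in library 5 and 1.2 in library 6, *Hbb-y* at 21.6 and 5.00 and *Hba-x* at 12.6 and 3.25. *Hbb-bh1*, *Hba-a2* and *Tnnc1* were 3.64, 2.41 and 2.12 times higher in library 5.

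The same genes differed between these libraries in the other classes. *Hbb-y* stood at 25.5 and 4.87 in epicardial cells, at 30.8 and 5.5 in *Barx1* *Foxf1* mesenchyme and at 29.9 and 4.91 in *Postn* *Twist1* *Hapln1* mesenchyme. Red blood cells made up 14% of the kept barcodes of library 5 and 11% of those of library 6. The part of free RNA in these differences was not tested. Among the 1594 genes no gene of the pathways described above reached a 2-fold difference.

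**Figure D5:**
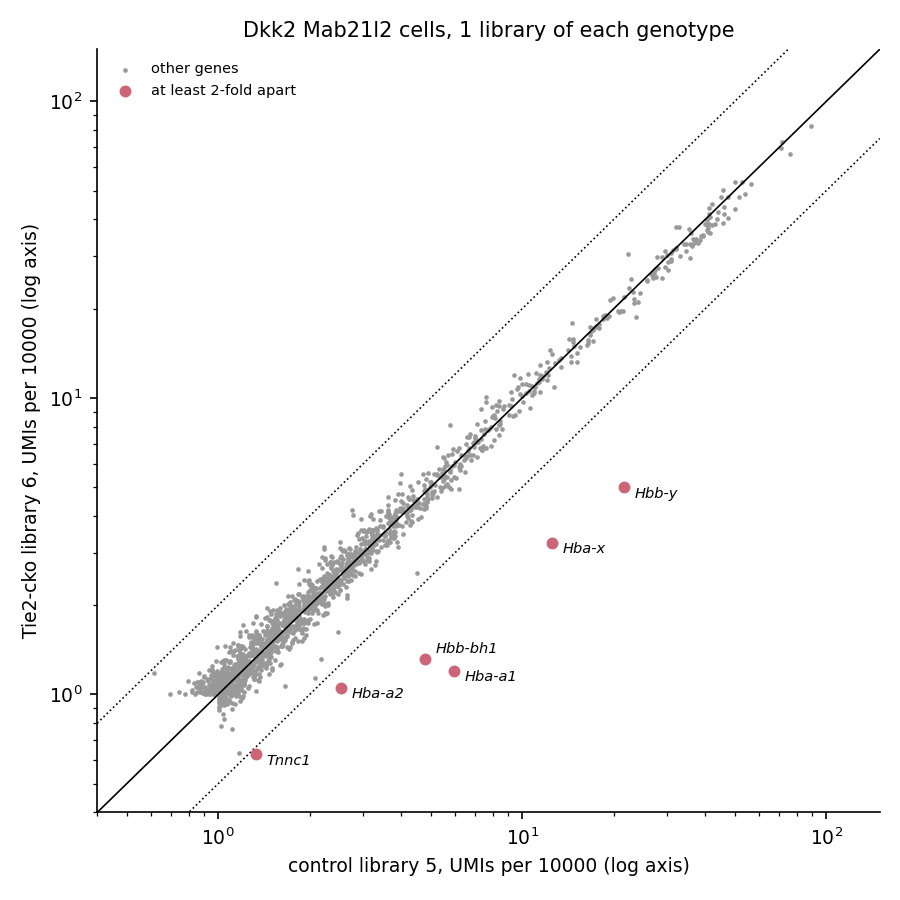
Levels of 1594 genes in the Dkk2 Mab21l2 cells of library 5 (control, horizontal) and library 6 (Tie2-cko, vertical), in UMIs per 10000 on log axes, with dotted lines at 2-fold. The 6 named points are haemoglobin genes and *Tnnc1*, all lower in library 6, and no point lies above the upper line.

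Genes whose level followed the 2 gate genes over the 16 sums were named as a description. Nearest to *Dkk2* were *Lix1* (Pearson's r 0.955), *Col12a1* (0.953), *Col11a1* (0.938), *Hand1* (0.924) and *Wnt2* (0.905). Nearest to *Mab21l2* were *Lix1* (0.931), *Alx1* (0.928), *Ebf3* (0.918), *Homer2* (0.901) and *Ahctf1* (0.893). The sums share libraries and depth, and the 4 sums of Dkk2 Mab21l2 cells were high in *Dkk2* and *Mab21l2* by choice.

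Within the class, the genes that varied most between cells thinned to 5500 UMIs were partly those of cell state and RNA content. The 15 genes with the highest ratio of variance to mean in both libraries 5 and 6 included *Malat1* (9.61 and 12.6), *Gm42418* (9.17 and 386, with 1 cell of 1063 UMIs in library 6), the histone genes *Hist1h1b* (8.86 and 11.6), *Hist1h2ap* and *Hist1h2ae*, the mitochondrial *mt-Co3*, *mt-Atp6* and *mt-Co2*, and *H19*, *Myl7*, *Acta2* and *Tmsb4x*. The median ratio over 5128 genes was 0.971. *Cdkn1c*, an inhibitor of the cell cycle, had ratios of 6.82 and 19.9, and *Crabp1* had 4.88 and 6.44, being detected in 80.2 and 72.5% of cells with up to 20 and 21 UMIs. *Pdlim3*, which encodes a protein of actin filaments, was detected in 8.33 and 10.1% of cells, with up to 7 and 13 UMIs.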

How the data were processed

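The deposited matrices hold UMI counts for each gene in each barcode. Cell Ranger and mm10 are named in the submitters' notes. The file headers give version 6.1.2 of Cell Ranger, whereas the paper's methods name another version. The annotation version is not given in the sources used here. Counts were read as deposited, and 32158 of 32285 genes matched GENCODE M21 by Ensembl ID. The barcodes were filtered and gated as stated in the report. Doublets were kept, and removal of barcodes marked by Scrublet was an alternative. Counts were summed per library and class of at least 10 cells and fitted in 1 model over 4 classes and 16 sums, with library and class as terms (edgeR 4.0.16 in R 4.3.3, TMM scaling, filterByExpr, quasi-likelihood test, Benjamini-Hochberg adjustment over all genes tested). Single values used exact permutation (scipy 1.17.1). DESeq2 1.42.0 was an alternative. The genotypes were compared over the 4 sums of these cells by both tools. Other tools were Python 3.11.15, pandas 2.3.3 and scanpy 1.11.5. The calculations were tested on simulated data.

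Each library is a sample, and the labels give the genotype and a library number that no other library shares. The cells, the classes and the 27 gene lists were chosen with earlier results of these data known. Named genes were those of the gates and of the working name, *Tek*, *Tie1* and *Angpt1*, the 15 highest and 15 lowest fold changes against epicardial cells and 8 and 8 against the other classes (adjusted p under 0.05, at least 1 UMI per 10000 in the higher class, the same direction in every library), the 15 leading genes above all 3 classes, the genes 2-fold apart between libraries 6 and 5, the 15 most variable genes, list members and the 5 genes most like each gate gene. A gene that the rule names is not reported here. The level used for likeness was log2 of UMIs per 10000 plus 0.1.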

Additional observations from a re-analysis of the deposited data

How the results depend on the processing

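The counts of genes that passed rested on libraries 5 and 6. Leaving out 1 library in turn gave 1529 to 2873 genes against epicardial cells, 1230 to 3227 against *Barx1* *Foxf1* mesenchyme and 2392 to 4252 against *Postn* *Twist1* *Hapln1* mesenchyme, lowest without library 5 or 6. Against *Barx1* *Foxf1* mesenchyme a fit of the 2 classes alone gave 1367 genes, a fit without the replicate block (the library) 1819, and gates without their exclusions 1903, against 2869 with the settings of the report. The causes were not tested. The difference in share between genotypes ran from -0.539 to 1.83 percentage points when 1 library was left out, and changed sign without library 6. The genes 2-fold apart between libraries 6 and 5 numbered 6, against 15 at 1.5-fold and 3683 with no minimum level. A test of Tie2-cko against control over all 4 libraries, chosen after seeing the data, called 0 genes by edgeR and 1 by DESeq2. Upper quartile and DESeq2 scaling moved the median of all genes by less than 0.1 on the log2 scale. Fits with the Dkk2 Mab21l2 cells of libraries 5 and 6 alone beside the other classes of all 4 libraries (3016, 3205 and 4431 genes) and with the cells of low uroplakin alone (3417, 2253 and 3884) were chosen after seeing the data. For 101 pairs of a gene and a comparison, those with the largest changes, 1736 values were computed under the alternatives, of which 1731 kept their direction and their side of the threshold, and the other 5 kept their direction but no longer passed, which were 4 for *Crabp2* (adjusted p from 0.0547 to 0.125) and 1 for *Ebf3* under DESeq2 (0.0913), both against *Barx1* *Foxf1* mesenchyme. The 101 pairs had been picked for passing the threshold in the same data, most of them also for the same direction in every library. Their steadiness is thus in part set by that choice, and genes of the working name are among them. Members of the lists were not counted here, and among the list members *Bnc2*, *Gata4* and *Apoa2* depended on the fit, as the report gives. Libraries 7 and 8 held 28 of the cells, so their levels rest on few UMIs.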
